A study of Mus musculus with 7 samples.

Results

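Alternative 5′ splice site events are places where an exon keeps its upstream boundary and ends at 1 of a pair of downstream boundaries, giving a long and a short form. All events that the deposited tables type as such, whose coordinates were unique within each table and listed under both replicate numbers, were taken: 793 of 11814 events of all 5 types. They lie in 743 genes, of which 44 hold more than 1 event (94 events together). The tables listed 1041 such rows under replicate 1 and 1126 under replicate 2, of which 936 and 1006 had unique coordinates. The cells were primary cortical cultures from wild-type ICR mouse embryos of day 16, kept to day 11 in vitro. The KCl group (2 libraries) was exposed to 50 mM KCl for 10 min, and the control group (2 libraries) to a buffer with NaCl in its place. Both were washed, returned to their medium and harvested 24 h later. The labels do not say whether the libraries of a group came from separate cultures, so p-values measure the spread between these libraries only. Reads of the 793 events numbered 92426 and 118141 in KCl replicates 1 and 2, against 78485 and 122245 in control replicates 1 and 2.

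The 5′ splice site is the junction between an exon and the intron after it. It is first bound by the U1 small nuclear ribonucleoprotein, whose RNA pairs with the last exon bases and the first intron bases, and is later handed to U6. Where 2 sites compete, their pairing with U1, their distance and nearby SR and hnRNP proteins are known to set which one is used. Neurons use such choices in synaptic, channel and RNA-binding proteins, and depolarization is known to alter some splicing choices.

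Sequence was available where the site of the long form fell inside a RefSeq promoter window, 250 bases before to 50 after a gene start. This held for 14 events with 13 different sites, of which 6 sites lay in the window of their own gene and the others in that of a neighbour. The sites are shown to let the letters that U1 meets be set beside the use of the long form. Capitals mark the 9 bases of the site, 3 of the exon and 6 of the intron, read 5′ to 3′ on the strand of the gene, from RefSeq on GRCm38.p6.
Hspd1, chr1:55087971-55088003, minus strand: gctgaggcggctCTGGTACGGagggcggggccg
Ube2j2, chr4:155944136-155944168, plus strand: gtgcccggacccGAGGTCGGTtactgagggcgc
Man2c1, chr9:57131267-57131299, plus strand: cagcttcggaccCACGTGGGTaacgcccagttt
Ttc3, chr16:94370966-94370989, plus strand: tgtGTGGTGAGTgtgggtgtgcgc
Lig3, chr11:82781262-82781292, plus strand: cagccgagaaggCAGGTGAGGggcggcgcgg
Tmem205, chr9:21927269-21927301, minus strand: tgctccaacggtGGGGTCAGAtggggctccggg
Sumo3, chr10:77606348-77606368, plus strand: CCGGTACGCaagccgcagcag

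All 13 sites had GT as the first intron bases, 12 had G as the last exon base and 10 had G at intron position 5. Position 6 was T in 6 of them. In Hspd1, a mitochondrial chaperonin, the long form took 92.5% and 95.2% of reads in KCl, against 90.5% and 89.0% in control. In Ube2j2, a ubiquitin-conjugating enzyme, it took 92.2% and 89.9% in KCl, against 91.9% and 93.2% in control. Sumo3, a ubiquitin-like modifier, stood at the other end, with 2.22% and 1.36% in KCl, against 0% and 1.10% in control. The 0% was 0 of 329 reads. Tmem205, a membrane protein, lay low as well, with 16.3% and 22.6% in KCl, against 28.6% and 17.5% in control. Among these long forms, all with GT, some had almost all reads and others few. The sequences of the competing short-form sites were not read, so no relation between site letters and use can be drawn. Lig3, a DNA ligase, had 69.4% and 63.2% in KCl, against 90.9% and 85.7% in control, and its groups did not overlap, on 14 to 36 reads per library. Its log2 odds ratio was -1.96 (adjusted p = 0.592, edgeR). The Ttc3 site closes 2 listed exons that start 16 bases apart. The larger had 94.9% and 73.8% in KCl, against 84.7% and 62.7% in control, and the smaller 72.5% and 65.9% in KCl, against 84.6% and 69.2% in control. Neither Ttc3 event separated the groups.

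The value given throughout is the long-form read share, the reads of the long form in percent of the reads of both forms. It is not a percent spliced in, because the lengths over which each form was counted are not given. Of the 793 events, 501 had at least 20 reads of both forms in every library. Of these, the mean share over the 4 libraries was under 10% in 114, between 10% and 90% in 227 and over 90% in 160. The long form had more of the reads (over 50%) in 281 events and fewer in 220, which need not be the order of the transcripts themselves. By this share, the events with the most reads were nearly one-sided. In Ptprz1, a receptor phosphatase of glia and progenitors, the long exon of 3547 bases took 98.4% and 98.1% of reads in KCl, against 98.8% and 98.9% in control. The same Ptprz1 exon pair counted as cassette exons had 76.7% of the long exon over the 4 libraries (80510 against 24409 reads). The short form of Ptprz1 is therefore not shown to be nearly absent. In Pea15a, an astrocyte-rich phosphoprotein, the long form took 99.4% in both KCl libraries, against 99.5% and 99.3% in control. In Clu, the secreted chaperone clusterin, the long form had only 0.286% and 0.165% in KCl, against 0% and 0.265% in control.

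**Figure D1:**
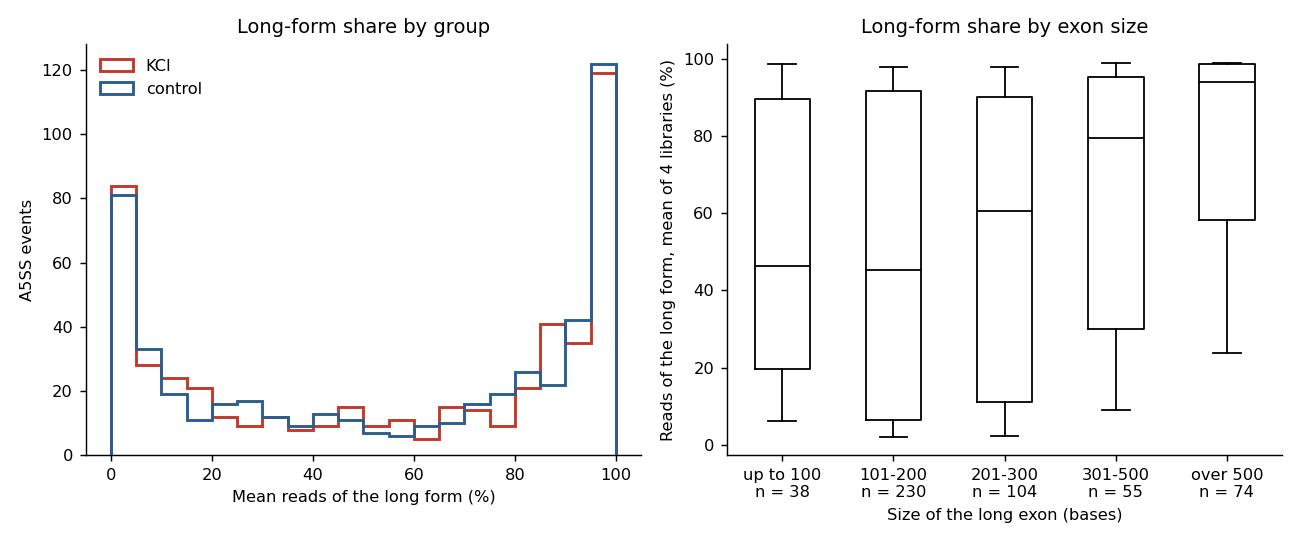
Left, number of alternative 5′ splice site events (y axis) by mean long-form read share in percent (x axis) for KCl (red) and control (blue), 501 events with at least 20 reads in every library. Right, long-form share (mean of 4 libraries, percent) by size of the long exon, with boxes from the lower to the upper quartile, a line at the median and whiskers from the 10th to the 90th percentile. Most events sit near 0% or 100% in both groups, and the median share is 94.0% in exons over 500 bases, against 46.2% in exons up to 100 bases.

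The share went with the size of the long exon, whose median was 185 bases (45 to 3547). Over the 501 events, the median share was 46.2% in 38 exons of up to 100 bases and 45.3% in 230 of 101 to 200 bases. It was 60.6% in 104 of 201 to 300 bases, 79.6% in 55 of 301 to 500 and 94.0% in 74 over 500. Spearman's rho across these 501 events was 0.21, given as a description, since events share libraries. A longer exon can hold more reads of its own form, and the part of this in the relation was not tested.

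Where the short form ends is not given for these events. It was read from other rows of the same tables: 130 events had exactly 1 shorter exon with the same upstream boundary listed elsewhere, 3 had more than 1 and 519 had none. The strand, which decides which boundary is the 5′ splice site, was known for 652 events (337 plus, 315 minus). In 46 events both exons also had rows as cassette exons, and the long exon's part of these cassette reads was set beside the share. Spearman's rho was 0.90 and Pearson's r 0.87 over the 46, and in 45 both values lay on the same side of 50%. In 43 of the 46 the share lay further from 50% than the cassette value. In 1, Gng12, both were equal in all 4 libraries (tolerance 1e-09), so the rows can share reads and the check is not independent. Mlf2 had 38.3% there and 0.22% as a share, and Meg3, an imprinted long noncoding RNA, had 48.2% and 45.1%.

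Competing sites were mostly close together. In the 130 events the distance ran from 2 to 2547 bases with a median of 42.5, with 29 events at up to 12 bases and 34 at over 100. It was a multiple of 3, which keeps the reading frame within coding sequence, in 49 events (37.7%), with a remainder of 1 in 41 and of 2 in 40. The commonest distance was 4 bases (6 events), followed by 6 and 45 (5 each). Of the 76 with at least 20 reads in every library, the median share was 30.2% at up to 12 bases (15 events) and 36.7% at 13 to 50 (30 events). It was 96.5% at 51 to 100 (13 events) and 97.2% at over 100 (18 events). Spearman's rho of distance and share over the 76 was 0.36, again as a description. A longer stretch between the sites can likewise hold more reads of the long form. The part of this in the relation was not tested.

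**Figure D2:**
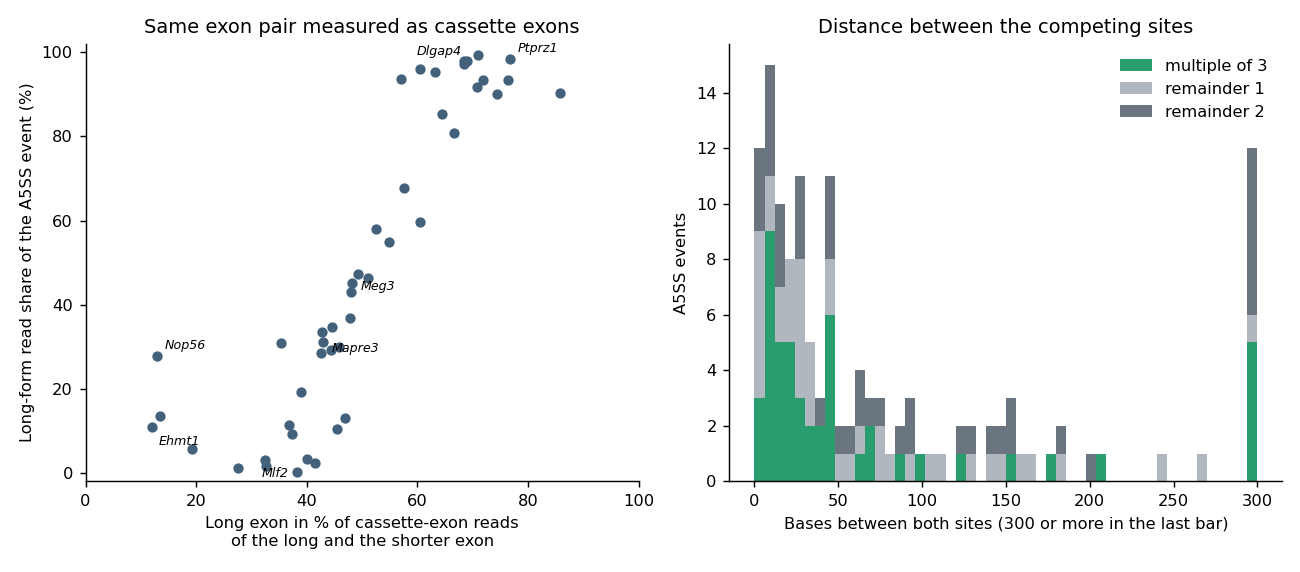
Left, long-form read share in percent (y axis) against the long exon's part of cassette-exon reads in percent (x axis) for 46 events, 1 point each. Right, number of events (y axis) by bases between both sites (x axis) for 130 events, stacked by the remainder after division by 3. In 45 of 46 events both measures lie on the same side of 50%, and 49 of 130 distances are a multiple of 3.

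Among pairs 4 bases apart, which shift the reading frame within coding sequence, the short form did not always have fewer reads. Whether the exons named here are coding was not looked up. Sumo2, a ubiquitin-like modifier, had 755 and 1017 long reads with 1 short read each in KCl, against 747 and 920 long reads and no short read in control. The 0 of 1667 control reads allows a short-form share of up to 0.18% (3 reads, counting error only). Sec61a2, a subunit of the endoplasmic reticulum translocon, had mainly short-form reads, with long shares of 1.82% and 3.64% in KCl, against 3.36% and 3.60% in control. Mettl10, a protein methyltransferase, had 18.3% and 17.6% in KCl, against 8.93% and 10.1% in control. Its groups did not overlap, with a log2 odds ratio of 1.03 ± 0.82 (SE; adjusted p = 0.815, edgeR). Smim8, a small membrane protein, had 50.0% and 34.8% in KCl, against 80.0% and 76.7% in control, on 4 and 5 reads in the replicate 1 libraries (adjusted p = 0.552). Garnl3 and Lyar overlapped between the groups. Sites 6 bases apart differ by 2 codons within coding sequence. Among these, Ehmt1, a histone H3 lysine 9 methyltransferase, had 14.7% and 9.30% in KCl, against 6.45% and 12.8% in control. Yap1, the Hippo pathway coactivator, had 0% and 6.45% in KCl, against 16.7% and 0% in control. Ktn1, a kinesin-binding membrane protein, had 22.5% and 5.00% in KCl, against 17.4% and 25% in control. None of these 3 separated the groups.

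KCl and control were then compared, to ask whether a brief depolarization had altered 5′ splice site choice a day later. The median share of the 501 events was 65.6% and 64.1% in KCl, against 67.3% and 67.2% in control, so both KCl medians lay below both control medians. The exact 2-sided permutation test gave p = 0.333, the smallest that 2 against 2 libraries allow. Across the 501 events, libraries of a group differed by a median of 3.45 points in KCl and 3.13 in control. The group means differed by a median of 2.35 points, counted without regard to direction. With direction kept, the median of KCl minus control was -0.139 points, so event by event there was hardly a common shift. Splicing was tested with edgeR's quasi-likelihood test on the reads of both forms, fitted to all 5 types, in 729 of the 793 events. The other 64 averaged under 1 read of the long form (31) or the short form (33). None of the 729 passed an adjusted p of 0.05 (0 of 10088 events of all types did, 0%), and the smallest adjusted p was 0.143. DESeq2 and limma also called none. An unadjusted p under 0.05 was reached by 26 events (3.57%), against 9.20% of all types. Of these 10 had a higher share in KCl and 16 a lower one, where all types had 4.23% higher and 4.97% lower. Without KCl replicate 1 the count was 8, and without control replicate 1 it was 16. limma gave 40.

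Beside them, alternative 3′ splice sites had 3.70%, retained introns 3.95%, mutually exclusive exons 6.79% and cassette exons 12.4% of tested events at an unadjusted p under 0.05. In 187 of the 501 well-read events (37.3%) both KCl libraries lay beyond both control libraries, against 42.3% of all types, 98 with a higher share in KCl (22.2% in all types) and 89 with a lower one (20.1% in all types). The authors' deposited tables, which compare KCl with control within a replicate number, give an FDR under 0.05 to 16 of the 793 events in replicate 1 (all types: 2.89%) and to 3 in replicate 2 (1.29%). All 3 of these, in Meg3, Usp5 and Vdac3, were among the 16 (all types in both: 1.03%). Of the 16, 13 differed in the same direction in replicate 2.

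**Figure D3:**
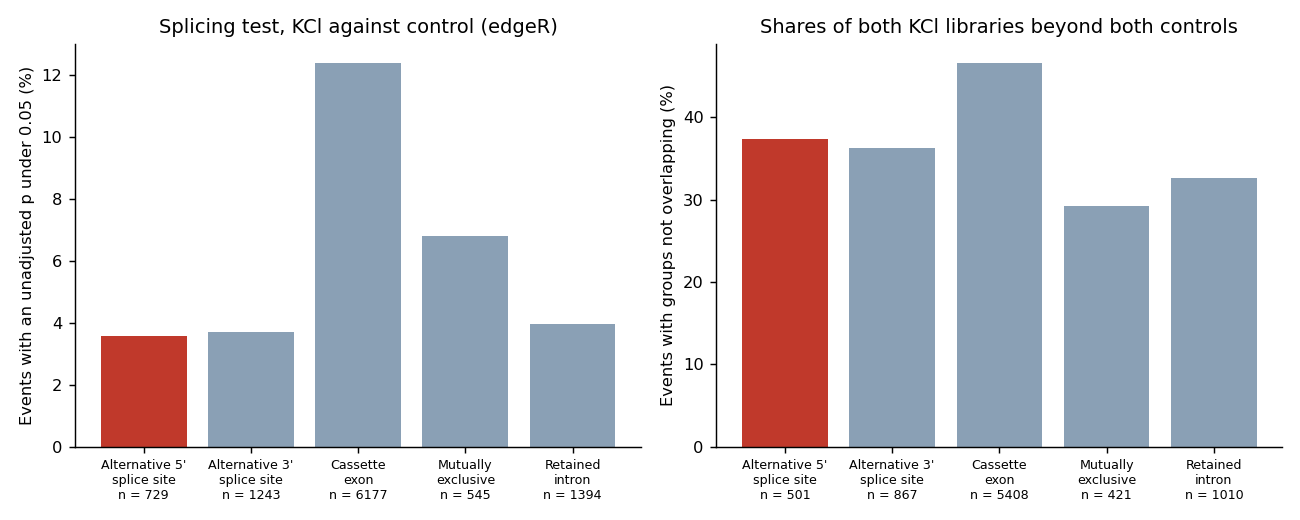
Percent of tested events with an unadjusted p under 0.05 in edgeR's splicing test (left, y axis) and percent of events with at least 20 reads per library whose KCl and control shares do not overlap (right, y axis), by type of event, with n under each bar. Alternative 5′ splice sites (red) have 3.57% on the left, against 12.4% in cassette exons, and 37.3% on the right, against 46.6%.

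Among events with less of the long form in KCl, Vdac3 and Usp5 had the smallest unadjusted p. Usp5 encodes a deubiquitinase that takes apart free ubiquitin chains, and in human a long and a short isoform come from an alternative 5′ splice site that the repressor PTBP1 affects. Its event is an exon of 192 bases on chromosome 6 (124818475 to 124818666, mm10). The long form had 61 of 196 and 170 of 388 reads in KCl, against 202 of 280 and 379 of 493 in control. These are shares of 31.1% and 43.8% in KCl, against 72.1% and 76.9% in control, so the form with more reads differs between the groups. Their means were 37.5% ± 8.97 in KCl and 74.5% ± 3.35 in control (SD, n = 2 each), with a log2 odds ratio of -2.29 ± 0.64 (SE; adjusted p = 0.185, edgeR). Leaving out a library in turn gave -1.91 to -2.70.

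Vdac3 encodes a channel of the outer mitochondrial membrane. Its event is a small exon of 53 bases on chromosome 8 (22587550 to 22587602). The long form had 218 of 375 and 207 of 331 reads in KCl, against 501 of 561 and 302 of 341 in control. The shares were 58.1% and 62.5% in KCl, against 89.3% and 88.6% in control, and within each group the libraries lay close together. The log2 odds ratio was -2.40 ± 0.63 (SE; adjusted p = 0.149, edgeR).

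Of the 501 events with at least 20 reads in every library, 4 differed by over 20 points in the same direction under both replicate numbers, Usp5 and Vdac3 among them, all lower in KCl. Events with fewer reads did so in either direction, such as Slc24a4 and Rreb1. The others of the 4 were Ccdc9 and Slc39a11, and Slc39a11 was picked after its values were seen. The count of 4 was not taken over the other types, so it has nothing to be set beside. Among the 187 well-read events with groups apart, 98 were higher in KCl and 89 lower. Ccdc9, a coiled-coil protein, had 11.4% and 31.2% in KCl, against 63.1% and 55.2% in control, on 35 to 65 reads per library (adjusted p = 0.344). Slc39a11, a zinc transporter, had 43.2% and 50.0% in KCl, against 64.3% and 73.8% in control (adjusted p = 0.654).

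**Figure D4:**
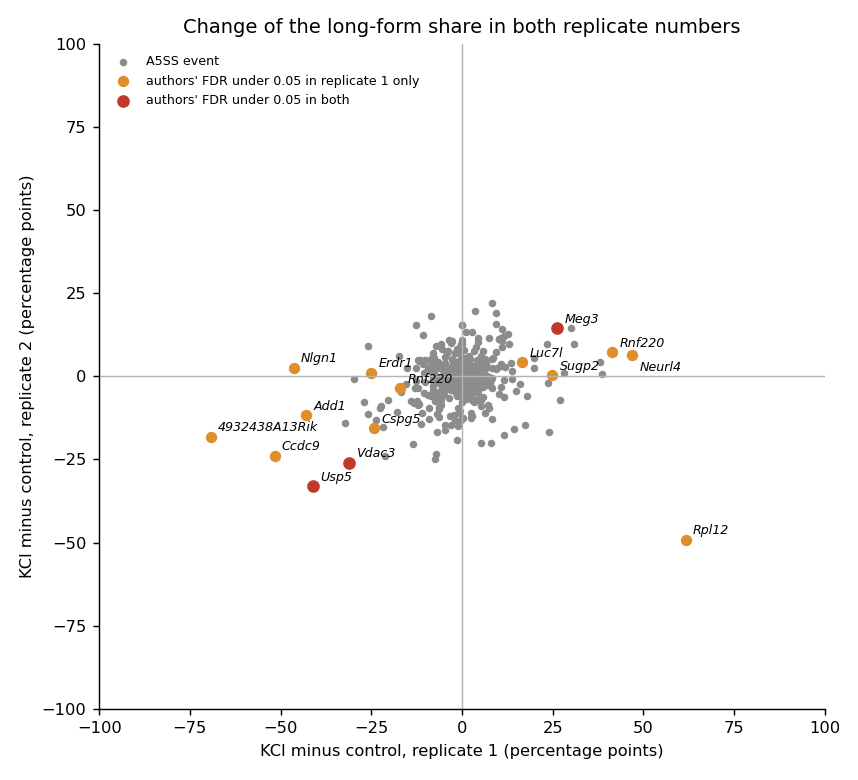
KCl minus control long-form share in percentage points in replicate 1 (x axis) and replicate 2 (y axis) for 501 events with at least 20 reads in every library. Orange points have an authors' FDR under 0.05 in replicate 1 only and red points in both. Usp5 and Vdac3 lie far into the lower left and Meg3 in the upper right, while Rpl12 lies at opposite signs.

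Further events with a lower share in KCl, by the smallest unadjusted p, were spread over many functions. Add1, the membrane skeleton protein adducin, had 13.7% and 26.8% in KCl, against 56.7% and 38.6% in control, on 350 to 501 reads (log2 odds ratio -1.89 ± 0.68, adjusted p = 0.369). Adar, the adenosine deaminase that edits RNA, had 82.1% and 89.9% in KCl, against 94.1% and 98.2% in control. Rnf220, a ubiquitin ligase, had 81.0% and 95.1% in KCl, against 98.1% and 98.6% in control, in an exon of 706 bases. For 4932438A13Rik the shares were 22.7% and 72.9% in KCl, against 92.0% and 91.0% in control, so the KCl libraries lay 50 points apart. Its replicate 1 library had 22 reads. Rreb1, a zinc finger transcription factor, had 6 of 11 and 12 of 22 long-form reads in KCl, against 9 of 10 and 51 of 56 in control. Slc9a8, a sodium-proton exchanger, had 0% and 6.67% in KCl, against 22.2% and 39.5% in control. Atg16l2, a relative of the autophagy protein Atg16l1, rested on 4 and 10 reads in KCl, against 15 and 9 in control. The adjusted p of these 7 events lay between 0.220 and 0.378 in edgeR. Cspg5, a neural proteoglycan, which stands outside the rule for naming and was picked after its values were seen, had 10.8% and 26.1% in KCl, against 35.0% and 41.6% in control (adjusted p = 0.491).

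Among events with more of the long form in KCl, the smallest adjusted p of all was that of Slc24a4, a potassium-dependent sodium-calcium exchanger. Its exon of 143 bases lies on chromosome 12 (102230351 to 102230493). The long form had 32 of 34 and 26 of 32 reads in KCl, against 3 of 14 and 13 of 38 in control. The shares were 94.1% and 81.2% in KCl, against 21.4% and 34.2% in control, with a log2 odds ratio of 4.10 ± 1.02 (SE; adjusted p = 0.143, edgeR). The authors' deposited table gives this event an FDR of 4.12e-04 in replicate 1 and 0.109 in replicate 2. Unk, an RNA-binding zinc finger protein, had 92.4% and 81.7% in KCl, against 62.5% and 67.2% in control (adjusted p = 0.496). Usp9x, an X-linked deubiquitinase, had 13.0% and 6.00% in KCl, against 1.20% and 3.04% in control (adjusted p = 0.438). Neurl4, a centriolar protein, had 86.4% and 61.9% in KCl, against 39.4% and 55.3% in control (adjusted p = 0.510). Its exon of 712 bases lies inside the interval listed for a retained-intron event.

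In the other 6 events named in this direction, a form had no read in both libraries of a group, so only the limit of that 0 is given and no fold. Ctdsp1, a phosphatase that acts on RNA polymerase II, had 0 of 69 short-form reads in KCl, which allows up to 4.35%, against 1 of 14 and 5 of 21 in control. Dvl1, a Wnt signalling protein, had 0 of 199 short-form reads in KCl (up to 1.51%), against 3 of 126 and 3 of 144 in control. Dlgap4, a postsynaptic scaffold protein, had 0 of 416 in KCl (up to 0.721%), against 4 of 97 and 1 of 274 in control. Arl16, an ARF-like GTPase, had 2 of 28 and 2 of 17 long-form reads in KCl, against 0 of 118 in control, which allows up to 2.54%. Ncoa5, a nuclear receptor coactivator, had 3 of 138 and 2 of 149 long-form reads in KCl, against 0 of 366 in control (up to 0.82%). Sec61g, a small subunit of the translocon, had 6 of 90 and 1 of 35 in KCl, against 0 of 83 in control (up to 3.61%). The adjusted p of these 6 lay between 0.313 and 0.491 in edgeR. Each rests on 7 or fewer reads of the rarer form, and 8 of the 26 events counted above had a form at 0 in this way.

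In several of the most-read events that use both sites, the groups overlapped or lay close together. Srsf5, an SR protein that binds exons and aids 5′ splice site use, had 73.5% and 75.6% in KCl, against 76.0% and 75.8% in control, on 757 to 1353 reads. Its log2 odds ratio was -0.10 ± 0.63 (SE). Rbm3, a cold-inducible RNA-binding protein, had 25.1% in both KCl libraries, against 29.3% and 23.4% in control. Tcf4, a neuronal basic helix-loop-helix factor, had 49.2% and 43.1% in KCl, against 43.4% and 46.4% in control. Rpl10a, a ribosomal protein, had 9.60% and 13.8% in KCl, against 9.95% and 18.6% in control, and Mbd3, a subunit of the NuRD complex, had 19.8% and 27.3%, against 25.2% and 30.9%. The adjusted p of these 5 lay from 0.973 to 0.991, and the groups overlapped in all but Srsf5. Smarcc2, a subunit of the BAF remodelling complex, had 23.7% and 39.6% in KCl, against 46.4% and 49.0% in control, without overlap (adjusted p = 0.722).

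Meg3 had more reads than any other event using both sites. Its exon of 150 bases (chromosome 12, 109543700 to 109543849) has a shorter form ending 44 bases upstream. The long form had 250 of 432 and 843 of 1487 reads in KCl, against 337 of 1066 and 1181 of 2799 in control. The shares were 57.9% and 56.7% in KCl, against 31.6% and 42.2% in control. Their means were 57.3% ± 0.834 in KCl and 36.9% ± 7.48 in control (SD, n = 2 each), so the spread lay mainly in control. The log2 odds ratio was 1.20 ± 0.64 (SE; adjusted p = 0.588, edgeR), while the authors' deposited table gives an FDR of 2.94e-11 in replicate 1 and 2.27e-06 in replicate 2. The same exon pair counted as cassette exons had 52.9% and 52.5% of the long exon in KCl, against 42.6% and 47.1% in control. These rows can share reads with the event, so they are not independent.

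Libraries of 1 group lay over 50 points apart in 2 well-read events, 4932438A13Rik and Rpl12. Rpl12, a ribosomal protein, had shares of 63.5% and 2.55% in KCl, against 1.75% and 51.7% in control. Its long form had 66 and 30 reads in KCl and 30 and 30 in control, and its short form 38 and 1145 in KCl, against 1685 and 28 in control. The authors' deposited FDR for it was 0.0072 in replicate 1 and 1 in replicate 2, and the 2 replicate numbers point in opposite directions. Ribosomal protein genes, Rpl10a among them, are known for processed copies, and how the counting treated such copies is not given, so the counts of both are uncertain. The part of copies in these values was not tested. Uncertain as well is Erdr1, a gene of several copies in the region common to X and Y, which had 69.4% and 73.4% in KCl, against 94.5% and 72.3% in control, with 1 control library apart.

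**Figure D5:**
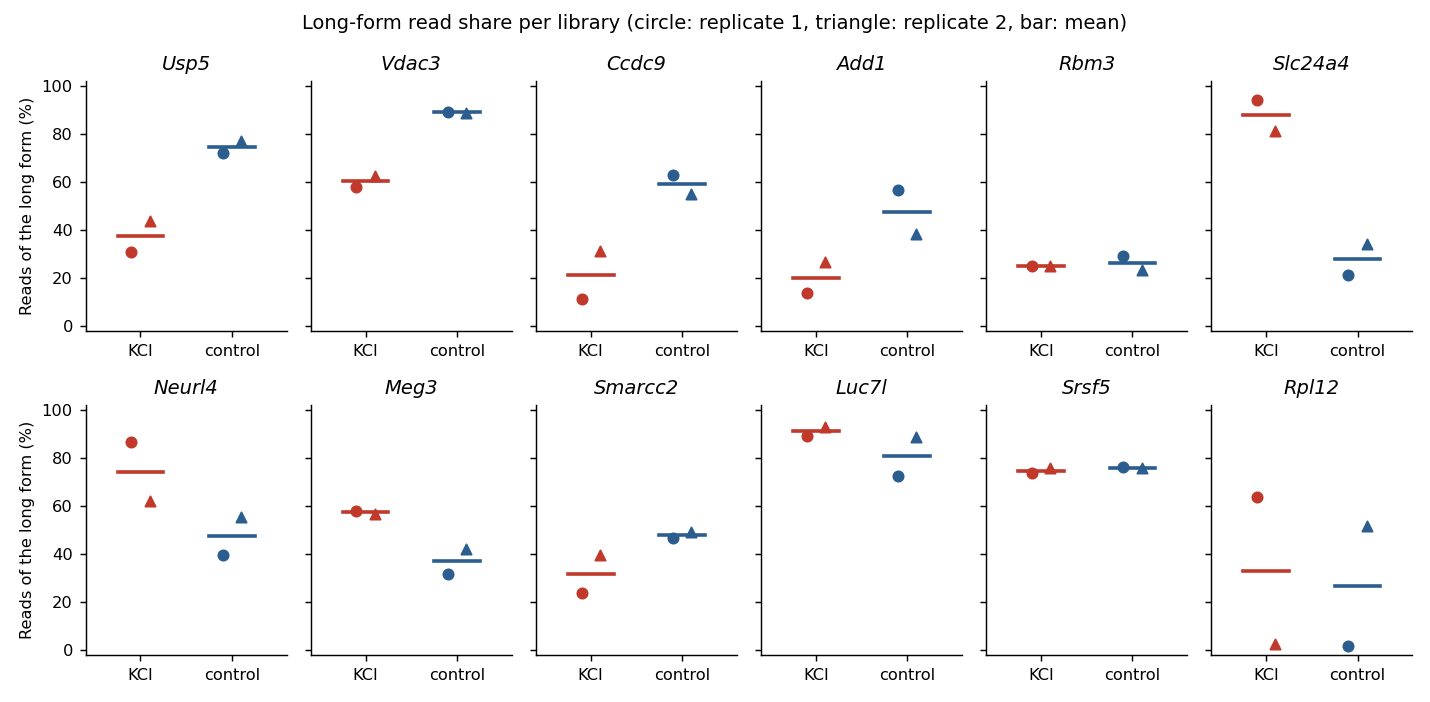
Long-form read share in percent (y axis) in KCl (red) and control (blue) for 12 events, with circles for replicate 1, triangles for replicate 2 and bars at the mean of 2 libraries. Usp5, Vdac3, Ccdc9 and Add1 lie lower in both KCl libraries and Slc24a4, Neurl4 and Meg3 higher, Rbm3 and Srsf5 hardly differ, and the libraries of Rpl12 lie far apart within each group.

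The splicing machinery itself uses alternative 5′ splice sites. Of 60 listed genes for 5′ splice site recognition, U1 and SR or hnRNP regulators, 13 held an event, 12 were tested and 0 reached an unadjusted p under 0.05 in edgeR. Their median log2 odds ratio was 0.24, beside -0.08 over all tested events of this type. Luc7l, a U1-associated protein, had 89.0% and 92.9% in KCl, against 72.5% and 88.6% in control, over an exon of 1423 bases. Celf2, an RNA-binding splicing regulator, had 33.0% and 29.4% in KCl, against 22.4% and 17.98% in control. Sf1, the branch point binding protein, had 8.22% and 15.3% in KCl, against 4.48% and 6.4% in control. These 3 had an adjusted p of 0.671, 0.790 and 0.784. Of the 10 list events with at least 20 reads in every library, the groups did not overlap in 6. Of these, 4 had a higher share in KCl (Luc7l, Celf2, Sf1, Prpf40b) and 2 a lower one (Hnrnph3, Srsf5). Among well-read events, the groups did not overlap in 37.3% of this type and 42.3% of all types. Tia1, which binds behind weak 5′ splice sites and aids U1, had 62.6% and 68.3% in KCl, against 54.4% and 63.1% in control. Hnrnph3 had 66.1% and 52.5% in KCl, against 73.2% and 75.9% in control (adjusted p = 0.817). Hnrnpm and Hnrnph1 used the long form in at least 98.5% of reads in every library. Rbm10, Rbm25, Tardbp and Tra2a were the remaining members with an event. Counting all types of event in these 60 genes, 147 were tested, with 4 higher and 3 lower at an unadjusted p under 0.05 (4.76%, against 9.20% over all events).

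Among 63 listed genes of synapse and axon, 17 held an event and 15 were tested, of which 1 (Dlgap4, higher in KCl) had an unadjusted p under 0.05. That is 6.67%, against 3.57% over events of this type and 9.20% over all types. The median log2 odds ratio of the 15 was -0.77. Nlgn1, a postsynaptic adhesion protein, had 47.8% and 90.2% in KCl, against 94.2% and 87.6% in control, so a single KCl library of 23 reads stood apart. Dnm1, the synaptic vesicle fission GTPase, had 92.1% and 84.9% in KCl, against 85.1% and 84.9% in control. Map4, a microtubule-associated protein, had 5.27% and 3.12% in KCl, against 10.6% and 6.12% in control, without overlap (adjusted p = 0.760). Dlg1, a scaffold protein with sites 45 bases apart, had 81.2% and 93.3% in KCl, against 98.6% and 87.2% in control. Further members included Cacna1c, Camk2d, Cask, Dlgap1, Erc1, Gria3, Nrxn2, Nrxn3 and Unc13a. Agrn, the heparan sulfate proteoglycan agrin, used the long form in at least 97.8% of reads in every library. For all types of event in these 63 genes, 22 were higher and 35 lower of 189 tested at an unadjusted p under 0.05 (30.2%, against 9.20% over all events). Levels in these genes were counted too. Of 219 events of all types in 56 genes, 8 were higher and 57 lower at that threshold. Over all events 4.08% were higher and 6.85% lower, and none passed an adjusted p of 0.05 (edgeR). The median log2 fold change of the 219 was -0.88, beside 0.02 over all events. Events of 1 gene are not independent. The neuron markers given with the levels were lower in KCl as well, and their part in these shares was not tested.

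Of 27 listed genes of RNA processing and chromatin, 5 held 7 events, of which 4 were tested and 0 had an unadjusted p under 0.05, against 3.57% over events of this type. Ehmt1, the H3 lysine 9 methyltransferase, held 3 of them. Its best-read event had 82.4% and 97.5% in KCl, against 92.7% and 96.6% in control, with overlap. Its least-read event had 1 long-form read in each KCl library, of 23 and 25, against 0 of 66 in control, which allows up to 4.55%. Its partner Ehmt2 used the long form in 0.87% and 0.806% in KCl, against 0% and 0.847% in control. Hdac3, a histone deacetylase, used it in at least 99.5% of reads in every library.

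Event levels, the reads of both forms, were compared with edgeR's quasi-likelihood test after TMM scaling. None of the 793 passed an adjusted p of 0.05 (all types: 0%), with 0.411 the smallest. DESeq2 called 2, of which 1 was Unc5a, and the calls also varied with the library left out. Calls under these other fits were counted in this type only, so they have no share of all types beside them. An unadjusted p under 0.05 was reached by 64 events (8.07%), 20 higher and 44 lower in KCl, where all types had 10.9%, 4.08% higher and 6.85% lower. Without KCl replicate 1 the count was 30. Unc5a, a netrin receptor, had 4.06 and 7.30 CPM (reads scaled to the library's total) in KCl, against 42.5 and 33.2 in control (log2 fold change -2.71 ± 0.54, SE). Nrxn2, a presynaptic adhesion protein, had 0.451 and 1.15 CPM in KCl, against 10.97 and 11.3 in control (-3.68 ± 0.69). Myt1l, a neuronal zinc finger factor, had 13.5 and 31.5 CPM in KCl, against 91.6 and 99.5 in control, while its share overlapped, with 16.7% and 23.2% in KCl, against 22.4% and 20.6% in control. Sdccag3 and the sugar transporter Slc2a6 also lay lower in KCl, and Cox6b2, Soat1, E130114P18Rik and Rfx5 higher, by log2 fold changes of -3.15, -2.47, 2.26, 1.76, 2.12 and 2.17 in that order. Each had an adjusted p of 0.411 (edgeR), and several rest on few reads. Sdccag3 had 9 reads over both KCl libraries. In control, long-form reads were 2 and 3 in Cox6b2, 0 and 1 in E130114P18Rik and 1 and 6 in Rfx5. Their short-form reads were 2 and 4, 2 and 5, and 1 and 0.

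Markers of cell types moved with these levels. Summed over measured events, 3 of 5 neuron markers (Map2, Rbfox3, Snap25) had 77.5 and 379 CPM in KCl, against 741 and 1024 in control, and all 3 were lower in KCl. The oligodendrocyte markers Bcas1 and Mbp (2 of 6 listed) had 353 and 332 CPM in KCl, against 40.6 and 64.9 in control. The astrocyte markers Aqp4, Gfap and Slc1a3 (3 of 4) had 606 and 543 CPM in KCl, against 166 and 302 in control. The mesenchymal and vascular markers Col1a2, Pdgfrb and Tagln (3 of 6) had 1910 and 1521 CPM in KCl, against 295 and 340 in control. Nes, the only measured progenitor marker of 3, had 268 and 244 CPM in KCl, against 76.3 and 107 in control, and none of 3 microglia markers was measured. In bulk cultures, fewer cells of a type and less RNA per cell cannot be told apart. The part of cell makeup in the shares above, including those of Usp5, Vdac3, Slc24a4 and Meg3, was not tested.

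Shares also went with the position of the exon in its gene. Exons that begin within 50 bases of an annotated gene start numbered 64, of which 40 were well read. Their median shares were 55.8% and 40.4% in KCl, against 41.0% and 39.6% in control. The 588 other events of known strand (375 well read) had 66.7% and 69.4% in KCl, against 67.9% and 69.4% in control. Of the first-exon events 62 were tested and 1, Sec61g, had an unadjusted p under 0.05 (1.61%), against 20 of 537 (3.72%). Exons lying inside the interval listed for a retained-intron event numbered 94, beside 699 others. That interval may take in the exons beside the intron, so an exon bordering the intron can count as well. The 64 well-read ones had a median size of 322.5 bases, against 183 bases in the 437 well-read others. Their median shares were 89.8% and 88.1% in KCl, against 84.2% and 86.6% in control. Of the 94, 82 were tested and 6 had an unadjusted p under 0.05 (7.32%), against 20 of 647 (3.09%). These contrasts between kinds of exon are descriptions and were not tested, since events are not replicates.

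Genes with several events did not always keep one direction. In Neurl4 the exon of 712 bases had a higher share in both KCl libraries, while an exon of 176 bases had 54.1% and 61.2% in KCl, against 62.7% and 67.0% in control. In Rnf220 the exon of 706 bases had a lower share in KCl, while one of 122 bases had 43 of 52 and 35 of 52 long-form reads in KCl, against 31 of 75 and 27 of 45 in control. These were the 2 genes whose well-read events lay apart in opposite directions, and in each the adjusted p of both events was at least 0.313. Genes whose events lay apart in the same direction were not counted, nor were genes over all types, so the 2 are a description only.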

How the data were processed

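The authors deposited, per the file headers, raw read counts of an inclusion and a skipping form per splicing event and library. The p-values and FDRs beside them are the authors' own, from comparing both groups under 1 replicate number. CASAVA 1.7, BWA 0.7.12, MACS2, TopHat2 and mm10 stand in the submitters' processing notes with no role named. The event counter, annotation and read filters are not given in the sources read. The 3 H3K9me3 libraries of the series were not used.

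Inclusion was read as the long form, checked on cassette exons. For splicing, edgeR 4.0.16 (quasi-likelihood; R 4.3.3) was fitted to counts of both forms of 10088 events averaging at least 1 read per form, with library terms, a form term and its interaction with KCl. Levels (both forms summed, given as CPM) used TMM with an intercept and KCl. Adjustment was Benjamini-Hochberg over all events of the 5 types, with a threshold of 0.05. Log2 odds ratios above 0 mean more long form in KCl. Alternatives were DESeq2 1.42.0, limma 3.58.1 (pseudocount 0.5), a replicate block, other filters, summed duplicates and leaving out each library. The fits were tested on simulated data. A limit behind 0 reads is 3 reads over both libraries. Python 3.11.15 was used with pandas 2.3.3, numpy 2.4.6, scipy 1.17.1 and, for figures, matplotlib 3.10.9.

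Total reads of listed events were 3643165 and 4666850 in KCl and 3566066 and 5385345 in control. Limits cover counting error only. Strand, gene starts and promoter sequence come from RefSeq tables (GRCm38.p6), matched by symbol or synonym for 652 of 793 events. Members, lists and rules were chosen with earlier results of these data known. Named were the 10 events per direction with the smallest unadjusted p and groups apart, those with an authors' FDR under 0.05 in both numbers, the 10 with most reads using both sites, list members, those 4 or 6 bases apart, and 5 per direction by level. Some items that these rules or lists name are not reported here.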

Additional observations from a re-analysis of the deposited data

How the results depend on the processing

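The log2 odds ratios of the 21 named splicing events and the level changes of the 10 named level events kept their sign under every alternative run. In all of these events the groups did not overlap, so leaving out a library could hardly turn the sign. The kept sign under a left-out library is therefore no test of these events. The 0 calls for splicing stayed 0 with DESeq2, limma, both other filters, summed duplicates and each left-out library, but the replicate block called 4 (Slc24a4 higher in KCl, and Vdac3, Usp5 and 4932438A13Rik lower). Same-numbered libraries deviated together with a correlation of 0.0798 over well-read events of this type and 0.0179 over all types, and no label ties a number to a shared culture or day, so the numbers are not taken as pairs. The 26 events at an unadjusted p under 0.05 became 40 with limma and 8 to 36 with a library left out. For levels, the 0 calls became 2 with DESeq2, 66 with the replicate block and 0 to 32 with a library left out. The 64 at an unadjusted p under 0.05 became 193 with the block and 30 to 92 with a library left out. Counts under the alternatives were taken over events of this type only, so they have no share of all types beside them. The cause of these moves was not tested. Groups did not overlap in 37.3% of events at a minimum of 20 reads and in 41.9% at a minimum of 50. With 1 library left out, the lone library of its group is assumed to vary like the others. The alternatives on the better-matching of both sites were not run, as no genome was used here. Only 501 of 793 events had at least 20 reads in every library, which limits what the others can show.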
